A study of Mus musculus with 32 samples.

Results

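Vegfa and 9 genes that mark endothelial cells, the lining of blood vessels, were followed through 32 expression arrays of samples from mice and from cell culture in a study of brown adipocytes. The genes were taken by name as Vegfa, Flt1, Kdr, Tek, Tie1, Cdh5, Pecam1, Esam, Emcn and Vwf, and every probe whose annotated transcript maps to them was used. This gave 10 genes of the 20659 named genes on the array, with 12 probes of 39429, since Vegfa and Kdr have 2 probes each and the others 1. The study asked, by its title, how Pparg, the nuclear receptor that drives fat cell formation, acts on brown adipocytes through glycerol kinase. Its 8 groups hold 4 arrays each, all labelled as strain C57Bl/6. The mouse groups were cold-exposed mice labelled Pparg KnockOut, cold-exposed Pparg control mice, mice labelled Pparg KnockOut kept at room temperature, and Pparg control mice kept at room temperature. The culture groups, all at room temperature, were Pparg KnockDown cells, their Pparg control cells, Gyk KnockDown cells and their Gyk control cells, Gyk being another name of the glycerol kinase gene Gk. The labels name no tissue and give no age, no promoter driving a deletion, no knockdown reagent, and no length of cold exposure. They also do not say whether replicates came from separate animals or cultures, so p-values measure the spread between these arrays. Levels are given as log2 signal minus the array's own 75th percentile (a log2 level of 0 equals that percentile), and a difference was called when limma's adjusted p over all tested genes was under 0.05.

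Vascular endothelial growth factor A, encoded by Vegfa, is secreted by many cells, brown adipocytes among them, and drives the growth of vessels through 2 receptor tyrosine kinases on endothelial cells, Flt1 and Kdr. Flt1 binds the ligand tightly and signals weakly, and its soluble form traps it, whereas Kdr carries most of the growth signal. Tek is the receptor of the angiopoietins and Tie1 its orphan partner. Cdh5 (VE-cadherin), Pecam1 and Esam join endothelial cells at their contacts, Emcn is a sialomucin of capillary and venous endothelium, and Vwf is the clotting protein stored in endothelial granules. Brown fat is densely supplied with capillaries, and cold is known to increase its blood flow and its Vegfa.

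The upstream sequence of Vegfa and of 3 endothelial receptor genes is shown, as examples among the members with a matched promoter. None was matched for Cdh5, Pecam1, Esam or Vwf. RefSeq promoters (build GRCm38.p6) were matched for 6 of the 10 genes, with 2 entries for Vegfa, of which the first is shown. The 250 bases before each annotated start, on the minus strand in all 4 cases, lie at chr17:46032378-46032627 for Vegfa, chr5:147726012-147726261 for Flt1, chr5:75978456-75978705 for Kdr and chr4:118489850-118490099 for Tie1. Capitals mark GGAA or its reverse complement TTCC, the core letters bound by ETS factors, which are known regulators of endothelial genes.
Vegfa: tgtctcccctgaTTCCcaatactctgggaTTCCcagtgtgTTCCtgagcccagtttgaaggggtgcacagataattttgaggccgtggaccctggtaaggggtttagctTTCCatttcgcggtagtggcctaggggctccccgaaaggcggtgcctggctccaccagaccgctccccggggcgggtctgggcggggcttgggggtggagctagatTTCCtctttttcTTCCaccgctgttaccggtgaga
Flt1: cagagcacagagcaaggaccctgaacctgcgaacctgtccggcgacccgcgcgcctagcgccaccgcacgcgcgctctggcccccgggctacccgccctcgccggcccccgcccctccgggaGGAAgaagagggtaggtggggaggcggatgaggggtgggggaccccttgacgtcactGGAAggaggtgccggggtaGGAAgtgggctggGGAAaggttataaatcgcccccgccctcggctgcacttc
Kdr: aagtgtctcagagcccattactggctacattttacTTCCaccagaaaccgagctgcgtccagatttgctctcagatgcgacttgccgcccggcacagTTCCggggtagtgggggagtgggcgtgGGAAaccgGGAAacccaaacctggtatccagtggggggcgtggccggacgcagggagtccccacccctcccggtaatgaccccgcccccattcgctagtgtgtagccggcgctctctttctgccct
Tie1: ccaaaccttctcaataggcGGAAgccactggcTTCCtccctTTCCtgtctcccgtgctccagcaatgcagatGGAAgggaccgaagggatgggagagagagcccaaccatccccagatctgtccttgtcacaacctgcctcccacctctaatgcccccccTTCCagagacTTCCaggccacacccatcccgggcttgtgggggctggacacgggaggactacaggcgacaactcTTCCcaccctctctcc
The window held 6 matches for the Vegfa entry shown and 2 for the other Vegfa entry, 7 for Tie1 and 4 each for Flt1 and Kdr. For Tek and Emcn, matched but not shown, the counts were 2 and 4. At least 1 match was present in 93.4% of all 32851 upstream windows of this length, 2 or more in 76.8%, 4 or more in 33.4%, 6 or more in 8.69% and 7 or more in 3.82%. ACGTG, the core letters of hypoxia response elements, was searched on both strands and was absent from these 4 windows, while the other Vegfa entry held 1 match, as 16.6% of all windows held at least 1. AGGTCA, the core letters that nuclear receptors bind, was absent from these 4 and from the other Vegfa entry and was held by 14% of all windows. Emcn, whose window is not shown, held 2 AGGTCA matches.

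The targeted genes were read first. Pparg had a log2 level of 4.10 to 4.39 in Pparg KnockDown cells and of 5.98 to 6.35 in their controls, a fall of 1.92 (limma, adjusted p = 7.49e-06). In the mice it went against the label: Pparg was 7.37 to 7.53 in room temperature mice labelled KnockOut against 5.26 to 5.52 in controls, and 7.90 to 8.06 against 5.28 to 6.40 in the cold. The array has 1 Pparg probe, and the sources used here do not place it relative to the deleted part, so it may check nothing. Every direction below that rests on a knockout is therefore given for the arrays labelled KnockOut. Gk fell by 2.40 in Gyk KnockDown cells (adjusted p = 0.0117). Each experiment was scanned on its own day on 2 slides that each held both of its groups, so temperature, and mouse against culture, cannot be told apart from slide and scan day. The 75th percentile signal was lowest on Gyk KnockDown arrays 3 and 4 (141 and 242 intensity units), against 351 to 411 in Gyk controls.

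All samples are labelled preadipocytes, but the endothelial genes separated the mouse arrays from the culture arrays. All 9 endothelial genes were well above background on all 16 mouse arrays. In culture, Tek, Tie1, Esam and Emcn were well above background on 0 of 16 arrays, Cdh5 on 1, Flt1 and Vwf on 8 each, Pecam1 on 9 and Kdr on 16. The second Kdr probe was above background on 0 of the 16 culture arrays and on all 16 mouse arrays, so the 2 Kdr probes disagree in culture. Globin and other red blood cell genes, read as markers of blood, reached a summed level (log2 of the summed signal of 4 genes, on the same scale) of 9.87 to 11.1 in room temperature control mice and of -3.26 to -2.23 in the culture controls. In culture, mature adipocyte markers such as Ucp1, the heat-producing uncoupling protein, were high, with Ucp1 at 6.36 to 6.69 in Pparg controls. Ucp1 was higher still in room temperature control mice, at 9.84 to 10.6. In such bulk RNA, fewer endothelial cells and less RNA of a gene per cell cannot be told apart.

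Room temperature control mice were then set against the culture controls, a comparison in which 83.9% of all genes tested were called (38.5% higher, 45.3% lower). Of the 9 endothelial genes only Kdr was above background on all 12 arrays of this comparison, and the others entered it through the mouse arrays, so their number called higher is set by the filter and is not read. Esam was at least 182-fold, Emcn at least 55.7-fold, Tie1 at least 32.5-fold and Tek at least 12.2-fold higher, these being bounds because no culture control array measured them above background. Flt1 was above background on 4 of the 8 culture control arrays, Cdh5 on 1, Vwf on 3 and Pecam1 on 5, so no difference is given for them. Kdr was higher by 2.19 ± 0.19 (log2, SE) by the probe that was above background in culture, and the second probe has no measured level there to set the mice against. Vegfa, in contrast, was read in all 32 arrays by both probes. Its difference between mice and culture took opposite signs, -1.42 by probe A_52_P638895 and 1.07 by probe A_52_P249424, so no direction is given.

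**Figure D1:**
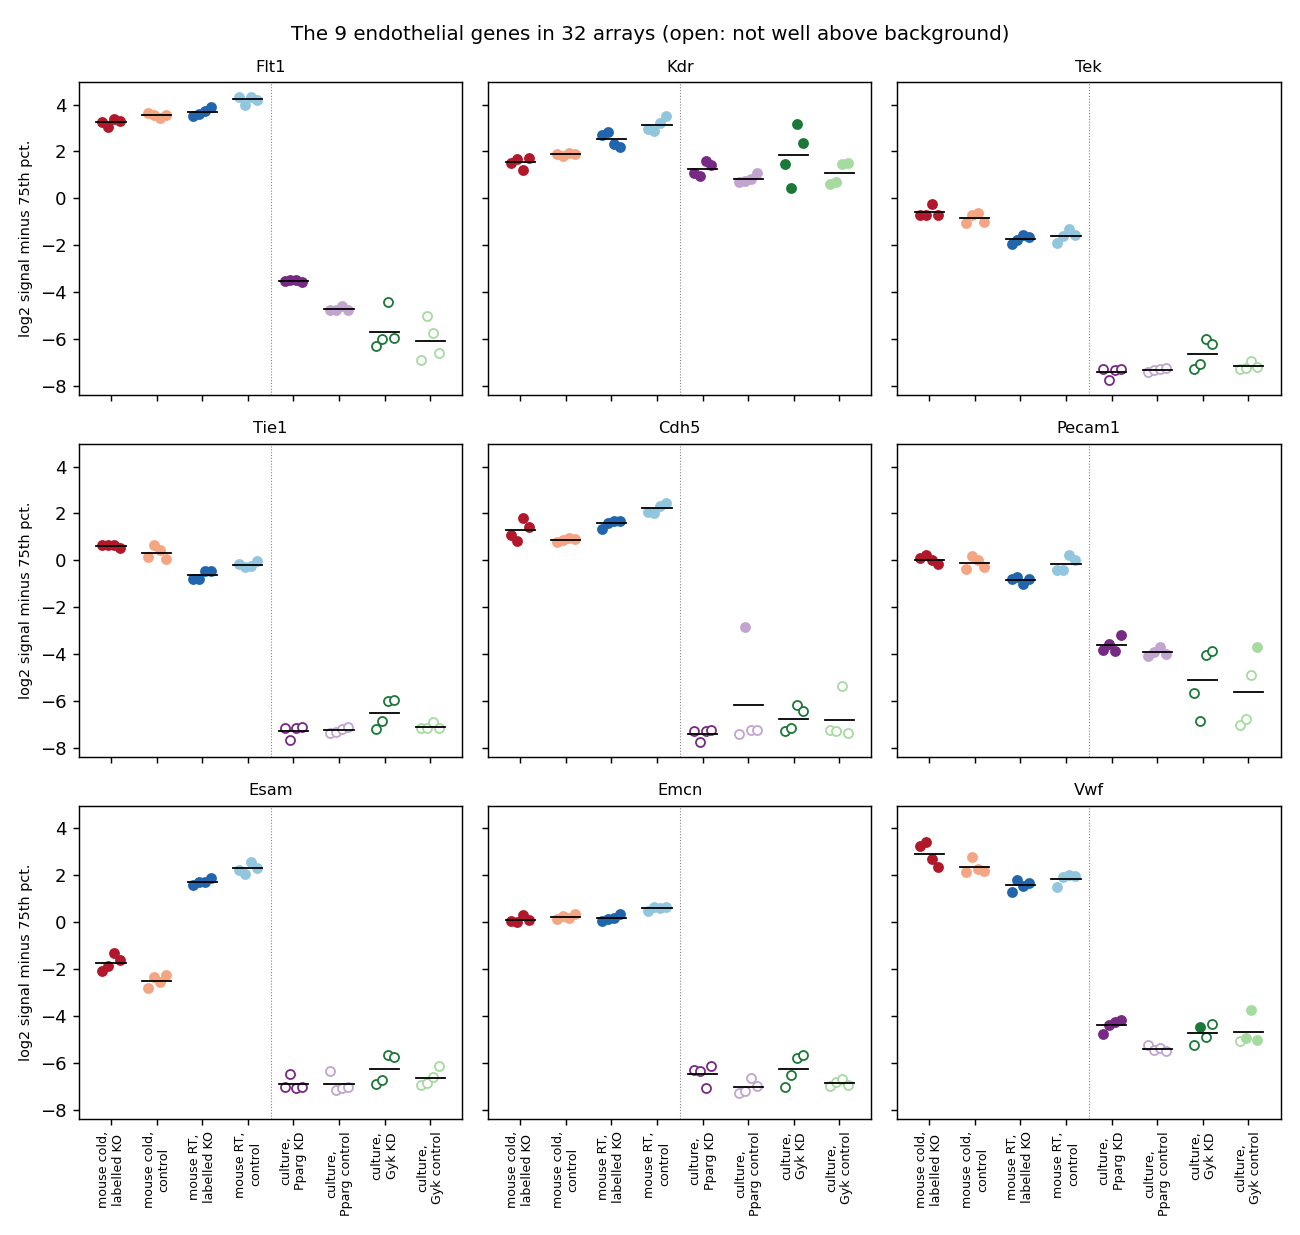
Log2 level of each of the 9 endothelial genes (y axis, log2 signal minus the array's 75th percentile) in every array, by group (x axis; 4 points a group, line at the group mean, open points not well above background, dotted line between mouse and culture groups). All mouse points are filled, Tek, Tie1, Esam and Emcn have only open points in culture, and Esam shows the widest gap between cold and room temperature mice.

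Vegfa was present in every group, and what it did depended on the probe. By A_52_P638895, chosen by its mean over all 32 arrays although the other probe had the higher mean over the 16 mouse arrays, its log2 level was 4.26, 4.22, 4.19 and 3.83 in cold mice labelled KnockOut and 4.63, 4.51, 4.19 and 4.33 in cold controls. It was 2.74, 2.70, 2.98 and 2.52 in room temperature mice labelled KnockOut and 2.35, 2.49, 2.94 and 2.62 in room temperature controls. Every cold array thus lay above every room temperature array, while the arrays labelled KnockOut overlapped their controls at both temperatures. By A_52_P249424 the level was 3.85, 4.31, 3.64 and 3.67 in cold mice labelled KnockOut and 4.77, 4.78, 4.36 and 3.93 in cold controls. It was 3.43, 3.35, 3.44 and 3.57 in room temperature mice labelled KnockOut and 3.97, 4.15, 4.43 and 4.28 in room temperature controls. Here the temperatures overlapped in control mice and did not in mice labelled KnockOut, and at room temperature all 4 arrays labelled KnockOut lay below all 4 controls.

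The tests followed these readings. In the cold, Vegfa was higher than at room temperature by 1.39 ± 0.15 (2.62-fold, adjusted p = 1.38e-06) in mice labelled KnockOut and by 1.82 ± 0.15 (3.53-fold, adjusted p = 8.29e-08) in control mice by A_52_P638895. By A_52_P249424 these differences were 0.42 ± 0.19 (adjusted p = 0.064) and 0.25 ± 0.19 (adjusted p = 0.252). In mice labelled KnockOut against controls, A_52_P638895 gave 0.13 ± 0.15 at room temperature (95% interval -0.19 to 0.45) and -0.29 ± 0.15 in the cold (-0.61 to 0.03), neither called. A_52_P249424 gave -0.76 ± 0.19 at room temperature (adjusted p = 0.00624) and -0.59 ± 0.19 in the cold (adjusted p = 0.0229), both lower in the arrays labelled KnockOut. The difference between the cold and the room temperature effect was not called by either probe (-0.43 ± 0.21, adjusted p = 0.197, and 0.17 ± 0.27, adjusted p = 0.72). The probes are annotated with different RefSeq transcripts of Vegfa, and whether they read different isoforms was not tested.

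The disagreement of the 2 Vegfa probes was set beside that of other genes. Over the 2577 genes whose 2 brightest probes were above background on all arrays compared, the probes' cold minus room temperature differences in control mice were 0.574 apart in the median, and 28.9% were over 1 log2 unit apart, against 1.57 for Vegfa. For the mice labelled KnockOut against controls at room temperature, the median gap over 2804 genes was 0.114 and 2% of gaps were over 1, against 0.892 for Vegfa. Only 2.53% of these genes had a wider gap than Vegfa in that comparison, and 13.5% did in the temperature comparison.

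**Figure D2:**
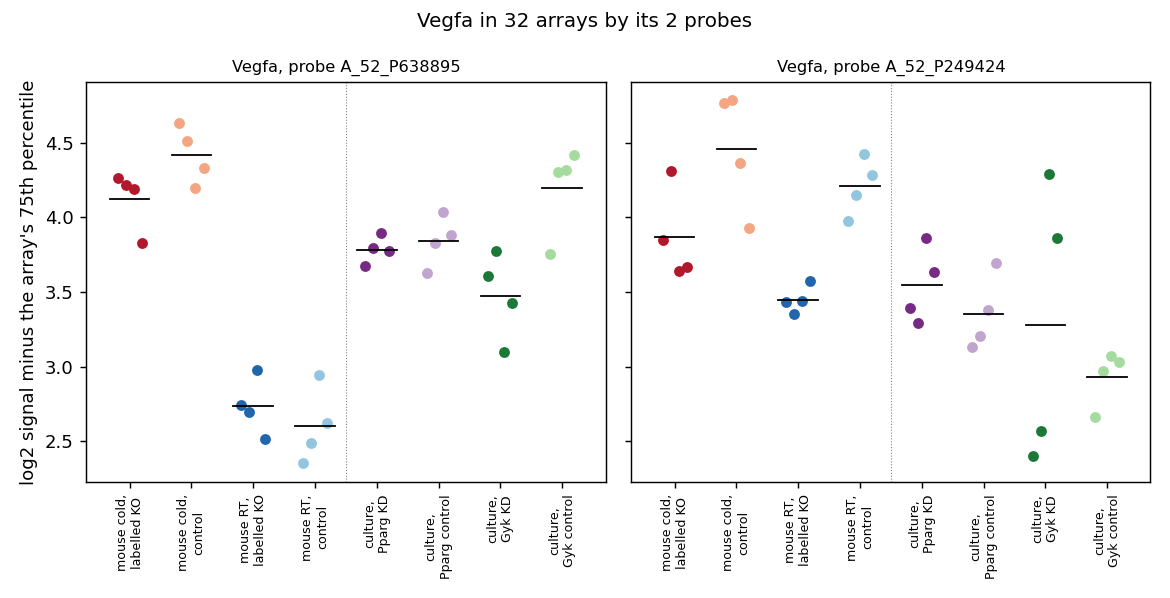
Log2 level of Vegfa (y axis, log2 signal minus the array's 75th percentile) in all 32 arrays by group (x axis), with 1 panel for each probe; points are arrays, lines are group means, and levels of different probes cannot be compared with each other. In the left panel the 8 cold arrays lie above the 8 room temperature mouse arrays; in the right panel the temperatures overlap in control mice, and the room temperature arrays labelled KnockOut lie below their controls.

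In order of mean level by A_52_P638895, cold control mice (4.42) came before Gyk control cells (4.20), cold mice labelled KnockOut (4.13), Pparg control cells (3.84), Pparg KnockDown cells (3.78), Gyk KnockDown cells (3.48), room temperature mice labelled KnockOut (2.73) and room temperature controls (2.60). Neighbours in this order overlapped, except that no Gyk KnockDown array fell within the range of the room temperature mice labelled KnockOut. By A_52_P249424 the order was cold controls (4.46), room temperature controls (4.21), cold mice labelled KnockOut (3.87), Pparg KnockDown cells (3.54), room temperature mice labelled KnockOut (3.45), Pparg control cells (3.35), Gyk KnockDown cells (3.28) and Gyk controls (2.93), and all neighbours overlapped.

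At room temperature, the endothelial genes were lower in the mice labelled KnockOut. Of the 9, 7 fell, 0 rose and 2 were not called, with a median log2 difference of -0.53 over the 9 against -0.06 over all genes tested. Over all genes, 34.9% were called in this comparison and 19.7% were called lower. For all 7 the 4 arrays labelled KnockOut lay below the 4 control arrays. That restates calls made on the same arrays, and the share of all genes so separated was not counted. The directions of the 7 rest on a label that the Pparg probe went against.

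Among the VEGF receptors, Flt1 was 3.52, 3.59, 3.74 and 3.88 in mice labelled KnockOut and 4.34, 4.0, 4.33 and 4.20 in controls. It was lower by 0.53 on the log2 scale (SE 0.11, adjusted p = 0.00184). Kdr was 2.72, 2.84, 2.30 and 2.20 in mice labelled KnockOut and 2.97, 2.89, 3.19 and 3.53 in controls, a difference of -0.63 ± 0.17 (adjusted p = 0.00968). The second Kdr probe moved the same way by -0.40 ± 0.15 but missed the threshold (adjusted p = 0.0527). Of the angiopoietin receptor and its partner, the partner Tie1 was -0.80, -0.79, -0.44 and -0.45 in mice labelled KnockOut and -0.16, -0.29, -0.25 and -0.04 in controls (-0.44 ± 0.13, adjusted p = 0.021). Tek was -1.94 to -1.56 in mice labelled KnockOut and -1.89 to -1.32 in controls and differed by -0.14 ± 0.15 (adjusted p = 0.493), its arrays overlapping.

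Among the junction genes, Cdh5 was 1.32, 1.61, 1.68 and 1.69 in mice labelled KnockOut and 2.08, 2.03, 2.32 and 2.43 in controls (-0.64 ± 0.17, adjusted p = 0.0103). Pecam1 was -0.80, -0.70, -1.0 and -0.80 in mice labelled KnockOut and -0.43, -0.41, 0.23 and 0.03 in controls (-0.68 ± 0.16, adjusted p = 0.00482). Esam was 1.58, 1.71, 1.74 and 1.90 against 2.23, 2.06, 2.59 and 2.32 in controls (-0.57 ± 0.17, adjusted p = 0.0179). For each of these 3 junction genes the groups did not overlap, which restates their calls. Emcn was 0.07, 0.14, 0.17 and 0.38 in mice labelled KnockOut and 0.49, 0.63, 0.61 and 0.64 in controls, a fall of 0.40 (SE 0.10, adjusted p = 0.0046). Vwf was 1.29 to 1.79 in mice labelled KnockOut and 1.5 to 2.03 in controls and differed by -0.27 ± 0.22 (adjusted p = 0.362) with overlapping arrays.

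Each of the 7 was lower on both slides. The differences were -0.22 to -0.68 on the slide holding controls 1 and 2. They were -0.52 to -0.91 on the slide holding controls 3 and 4. The slides divide the same arrays that gave the calls, so this is a description. The share of all genes lower on both slides was not counted. Scaling to the array median left 3 of the 7 called (Flt1, Kdr and Pecam1), with Tie1, Cdh5, Esam and Emcn at adjusted p = 0.0608 to 0.0849, and normexp background correction ended the calls of Flt1 (adjusted p = 0.0653) and Tie1 (adjusted p = 0.11). Leaving out control 4 (adjusted p = 0.0627), KnockOut 1 (0.0652) or KnockOut 2 (0.0647) ended the call of Tie1, and leaving out control 3 (0.0595) or KnockOut 1 (0.0518) that of Esam. The 75th percentile signal was also higher on all 4 arrays labelled KnockOut (499 to 605 intensity units) than on their controls (293 to 408), and its part in the result was not tested.

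In the cold the endothelial genes did not share a direction in the mice labelled KnockOut. Of the 9, 1 rose, 1 fell and 7 were not called, with 38.3% of all genes called. Esam was -2.06, -1.86, -1.32 and -1.62 in mice labelled KnockOut and -2.81, -2.32, -2.57 and -2.24 in controls. It was higher by 0.77 ± 0.17 (adjusted p = 0.00264), with no overlap, and by 0.61 and 0.93 within the 2 slides. Flt1 was 3.26, 3.06, 3.36 and 3.31 in mice labelled KnockOut and 3.66, 3.56, 3.42 and 3.54 in controls, lower by 0.30 on the log2 scale (SE 0.11, adjusted p = 0.0464). That call of Flt1 was lost in 10 of the 16 fits that left out an array (adjusted p = 0.0529 to 0.129), and stayed only without KnockOut 3 or control 3 in the cold, or KnockOut 1 or 4 or control 1 or 2 at room temperature. Quantile normalization gave Flt1 -0.08 (adjusted p = 0.592). Kdr (-0.34), Tek (0.25), Tie1 (0.29), Cdh5 (0.39), Pecam1 (0.15), Emcn (-0.13) and Vwf (0.57) were not called, although leaving out 1 array called Tie1 (0.40 without control 2, adjusted p = 0.0215), Cdh5 (0.54 without KnockOut 2, adjusted p = 0.0171) and Vwf (0.71 without control 2, 0.76 without KnockOut 4). Kdr was 1.23 to 1.73 in mice labelled KnockOut and 1.79 to 1.91 in controls, without overlap.

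The knockout effect in the cold was then tested against that at room temperature. It was higher in the cold for 4 of the 9 endothelial genes and lower for 0, where 13.3% of all genes were called, 6.13% higher and 7.2% lower. The difference was 1.34 ± 0.24 for Esam (adjusted p = 0.00366), 1.03 ± 0.24 for Cdh5 (adjusted p = 0.0151), 0.73 ± 0.19 for Tie1 (adjusted p = 0.0229) and 0.83 ± 0.23 for Pecam1 (adjusted p = 0.0296). These are the 3 junction genes and the partner of the angiopoietin receptor. In the cold, Cdh5 was 1.09, 0.82, 1.79 and 1.41 in mice labelled KnockOut and 0.77, 0.86, 0.97 and 0.92 in controls. Tie1 was 0.65, 0.64, 0.65 and 0.52 in mice labelled KnockOut and 0.14, 0.66, 0.44 and 0.05 in controls. Pecam1 was 0.10, 0.21, 0.01 and -0.17 in mice labelled KnockOut and -0.37, 0.18, 0.01 and -0.27 in controls. These cold groups overlapped, whereas those of the same 3 genes at room temperature did not. The separation at room temperature restates calls made on the same arrays. The share of all genes separated was not counted at either temperature. Vwf at 0.84 ± 0.31 was not called (adjusted p = 0.0867), but was without cold control 2 (0.99, adjusted p = 0.0456) or cold KnockOut 4 (1.04, adjusted p = 0.0351). Only Esam stayed called when arrays were scaled to their medians or corrected by normexp. The call of Pecam1 was lost without KnockOut 2, control 1 or control 4 in the cold, or KnockOut 1, KnockOut 3, control 3 or control 4 at room temperature (adjusted p = 0.0527 to 0.0628), and that of Tie1 without KnockOut 1 (adjusted p = 0.0523) or 2 (adjusted p = 0.051) at room temperature.

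**Figure D3:**
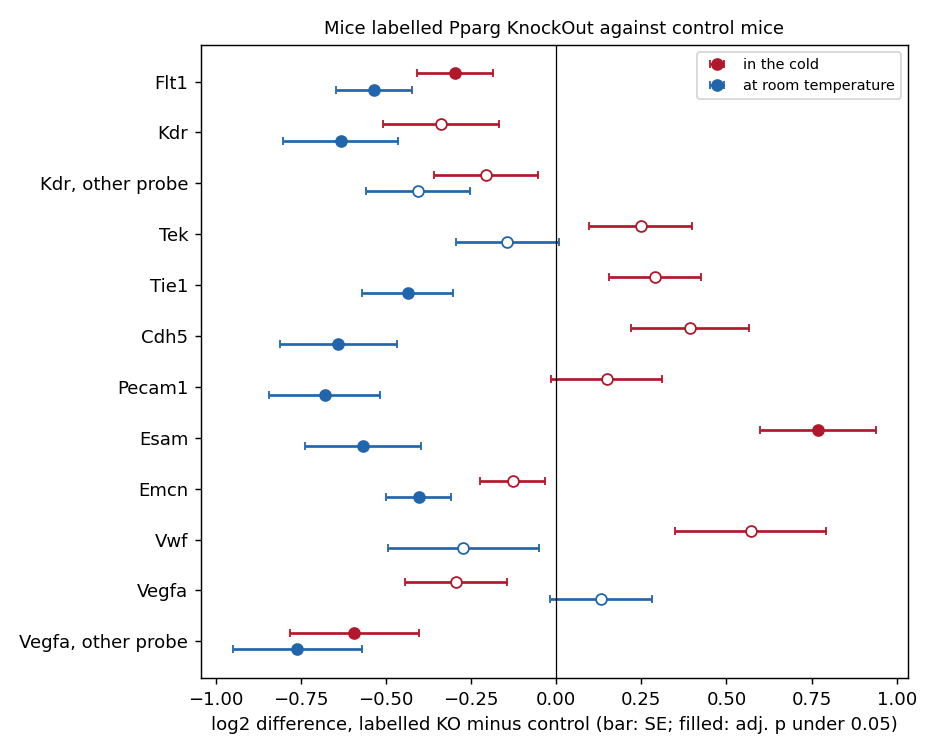
Log2 difference of mice labelled Pparg KnockOut minus controls (x axis; bars are SE, filled points have an adjusted p under 0.05) for each gene and for the second probe of Kdr and Vegfa (y axis), in the cold and at room temperature, with 4 arrays a group. At room temperature all 9 endothelial genes lie left of 0 and 7 are called; in the cold they lie on both sides.

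Cold against room temperature split the endothelial genes. In mice labelled KnockOut 4 of the 9 rose, 3 fell and 2 were not called, and in control mice 2 rose, 5 fell and 2 were not called. Over all genes 65.6% were called in mice labelled KnockOut (41.1% higher, 24.5% lower) and 66.7% in control mice (41.6% higher, 25.1% lower), so a call of a member is set against that share. The median of all genes tested was itself 0.24 and 0.23 higher in the cold. Only the values marked relative below have it subtracted.

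Esam moved furthest. In mice labelled KnockOut it was -2.06 to -1.32 in the cold and 1.58 to 1.90 at room temperature, a difference of -3.45 ± 0.17 (10.9-fold lower, adjusted p = 3.85e-10, relative to the median -3.68). It was -2.81 to -2.24 in cold controls and 2.06 to 2.59 in room temperature controls, -4.78 ± 0.17 (27.5-fold lower, adjusted p = 9.69e-12, relative -5.01). Esam is read by 1 probe, which was well above background on all 16 mouse arrays. Both VEGF receptor genes were lower in the cold in both genotypes. Flt1 differed by -0.44 (relative -0.67) and Kdr by -0.98 (relative -1.21) in mice labelled KnockOut, and Flt1 by -0.67 (relative -0.91) and Kdr by -1.27 (relative -1.5) in controls. The second Kdr probe fell by 1.57 and 1.77 in the same comparisons.

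Tek, the angiopoietin receptor gene, and Tie1, its partner, moved the other way. Tek was higher in the cold by 1.14 ± 0.15 (relative 0.90) in mice labelled KnockOut and by 0.75 ± 0.15 (relative 0.52) in controls. Tie1 was higher by 1.24 ± 0.13 (relative 1.0) in mice labelled KnockOut and by 0.51 ± 0.13 (relative 0.28) in controls. Cdh5 was not called in mice labelled KnockOut (-0.30, adjusted p = 0.141), where leaving out 1 array gave -0.47 to -0.15 and a call without cold KnockOut 3 (adjusted p = 0.0138), and it fell in control mice (-1.33, adjusted p = 8.55e-06). Pecam1 (0.86, adjusted p = 0.000291) and Vwf (1.33, adjusted p = 9.45e-05) rose in mice labelled KnockOut and were not called in controls (0.03 and 0.49), though scaling to the array median gave Vwf 0.84 there (adjusted p = 0.00169). Emcn was -0.08 in mice labelled KnockOut and -0.35 in controls, the second a call that scaling to the array median removed (-0.003). Under that scaling Flt1 in mice labelled KnockOut was -0.25 and no longer called (adjusted p = 0.127).

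Ucp1, which cold is known to induce in brown fat, was lower in the cold arrays by 1.03 in mice labelled KnockOut and by 1.04 in controls, and Gk was lower by 2.40 and 2.24. Their part in the vessel results was not tested.

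**Figure D4:**
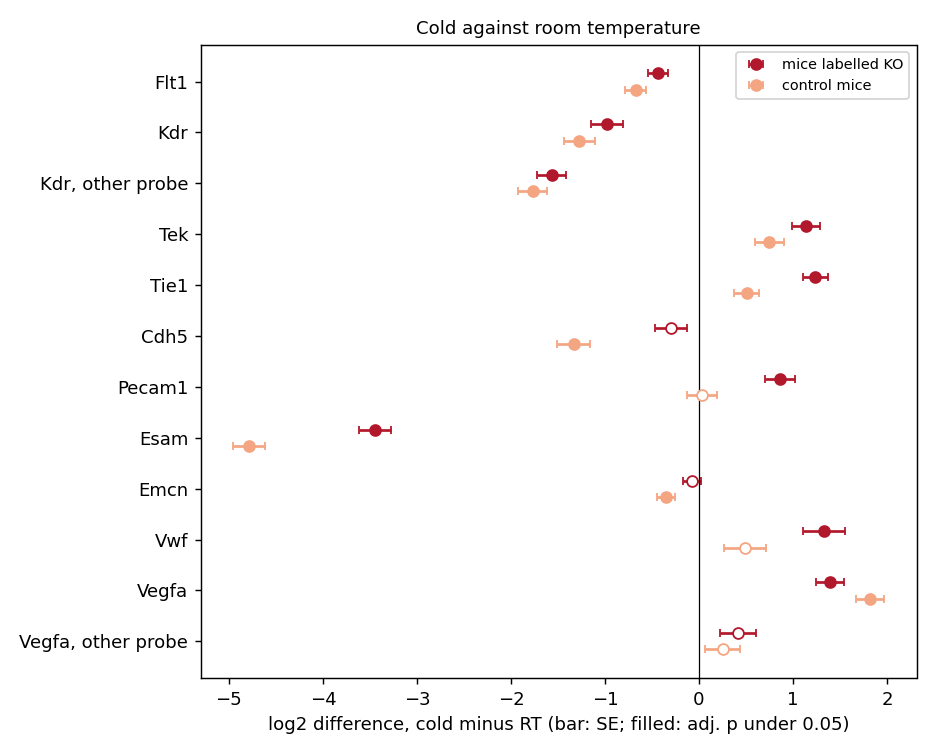
Log2 difference of cold minus room temperature (x axis; bars are SE, filled points have an adjusted p under 0.05) for each gene and for the second probe of Kdr and Vegfa (y axis), in mice labelled KnockOut and in control mice, with 4 arrays a group. In both genotypes Tek, Tie1, Pecam1, Vwf and both Vegfa probes lie right of 0, not all of them called. Flt1, both Kdr probes, Cdh5, Esam and Emcn lie left of 0 in both, again not all called.

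In culture few endothelial genes could be read. In Pparg KnockDown cells 4 of the 9 passed the filter on dim probes, 1 of them (Vwf) only through the KnockDown arrays. Of the other 3, Flt1 rose and 0 fell, where 34.8% of all genes were called, 17.8% higher and 17% lower. Flt1 was -3.53, -3.47, -3.48 and -3.57 in KnockDown cells and -4.76, -4.74, -4.60 and -4.75 in controls, higher by 1.20 ± 0.07 (2.29-fold, adjusted p = 5.68e-06). Vwf was -4.74, -4.40, -4.23 and -4.16 in KnockDown cells, all above background, and not well above background on any control array, at least 1.85-fold higher, which is given as a description since the filter let it in through the higher group. Pecam1 (0.32, adjusted p = 0.158), Kdr (0.42, adjusted p = 0.0709) and Vegfa (-0.06, adjusted p = 0.707; -0.29 to 0.17) were not called. Same-numbered arrays deviated together here, which the values above, from the unpaired main fit, leave out of account. With the replicate number as a block Kdr was called (adjusted p = 0.0126), and 7464 genes were called in place of 4465. Kdr was also called without KnockDown 2 (0.52, adjusted p = 0.0311). All Kdr values in culture come from 1 probe, since the second was not well above background on any culture array. Normexp background correction left Flt1 at 0.09 (adjusted p = 0.856) and turned Vwf to -0.16 (adjusted p = 0.732).

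In Gyk KnockDown cells 2 of the 9 could be tested and 0 were called, 0 also at an unadjusted p under 0.05, with 8.64% of all genes called by limma, 4.5% higher and 4.14% lower. Kdr was 1.49, 0.45, 3.18 and 2.35 in KnockDown cells and 0.63, 0.69, 1.48 and 1.49 in controls, and the 2 dim arrays 3 and 4 held the highest values. Its difference of 0.79 ± 0.54 (adjusted p = 0.379) became -0.11 without those 2 arrays. Vegfa by A_52_P638895 was 3.60, 3.77, 3.1 and 3.43 in KnockDown cells and 3.76, 4.30, 4.32 and 4.41 in controls, -0.72 ± 0.20 (adjusted p = 0.0608, -1.17 to -0.27), with -0.34 and -1.10 within the 2 slides. By A_52_P249424 it was 2.40, 2.57, 4.29 and 3.86 in KnockDown cells and 2.66, 2.97, 3.07 and 3.03 in controls, 0.35 ± 0.42. The dim arrays 3 and 4 held the highest KnockDown values by this probe and the lowest by A_52_P638895. Arrays 1 and 2 lay below every control by A_52_P249424, which was not refitted without the dim arrays. Without them A_52_P638895 gave -0.51 (adjusted p = 0.162). The Pparg knockdown effect on Vegfa minus the Gyk knockdown effect was not called by A_52_P638895 (0.66 ± 0.23, adjusted p = 0.0732) and was -0.15 by A_52_P249424 (adjusted p = 0.88). In that test 12.8% of all genes were called, 6.25% higher and 6.52% lower, with 0 of the 4 endothelial genes tested among them and 1 (Vwf, 1.05 ± 0.38) past an unadjusted 0.05.

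Other endothelial genes, 22 of them not among the 9, were read the same way, as a list chosen with earlier results of these data known. In room temperature mice labelled KnockOut 12 of 22 fell and 0 rose, with a median of -0.62, where 19.7% of all genes were called lower and 15.1% higher. The largest falls were in Gpihbp1, which holds lipoprotein lipase on capillaries (-1.06 ± 0.18), Eng, a co-receptor of the TGF-beta family (-0.93 ± 0.15), and Robo4, a guidance receptor of endothelium (-0.79 ± 0.14). In the cold 2 of 22 rose and 3 fell, against 16% and 22.3% of all genes. The knockout effect was higher in the cold than at room temperature for 9 of 22 and lower for 0 (6.13% and 7.2% of all genes), most for Clec14a (2.23 ± 0.38), S1pr1 (1.48 ± 0.25) and Gpihbp1 (1.08 ± 0.26).

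Genes of other cells were read beside these in mice labelled KnockOut against controls, with the same shares of all genes. All 4 red blood cell genes were lower in room temperature mice labelled KnockOut, with a median of -1.0 and a summed log2 level of 9.34 to 9.99 against 9.87 to 11.1 in controls. In the cold 0 of the 4 were called (10.2 to 10.9 in mice labelled KnockOut, 10.1 to 10.5 in controls). Of 10 mural cell genes, 2 fell and 0 rose at room temperature (summed level 4.34 to 4.52 in mice labelled KnockOut, 4.68 to 4.86 in controls), and in the cold 5 rose and 2 fell (4.61 to 4.82 in mice labelled KnockOut, 4.72 to 5.07 in controls). Of 8 preadipocyte and fibroblast markers, 6 rose and 0 fell in the cold, with a median of 0.83 (summed level 7.40 to 7.92 in mice labelled KnockOut, 6.79 to 7.2 in controls), and 1 rose and 1 fell at room temperature. Of 5 tested macrophage markers, 4 rose and 0 fell in the cold, with a median of 0.94 (summed level 4.48 to 5.14 in mice labelled KnockOut, 3.70 to 4.06 in controls), and 1 rose at room temperature. Of 8 mature adipocyte markers, 6 fell at room temperature and 7 in the cold, and 0 rose. For the difference of knockout effects 2 preadipocyte markers, 1 red blood cell gene and 1 mural cell gene were called higher. In that test 1 macrophage marker and 1 mature adipocyte marker were called lower. Over all genes 6.13% were called higher and 7.2% lower. The part of blood, mural cells, preadipocytes, macrophages or adipocytes in the endothelial results was not tested.

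**Figure D5:**
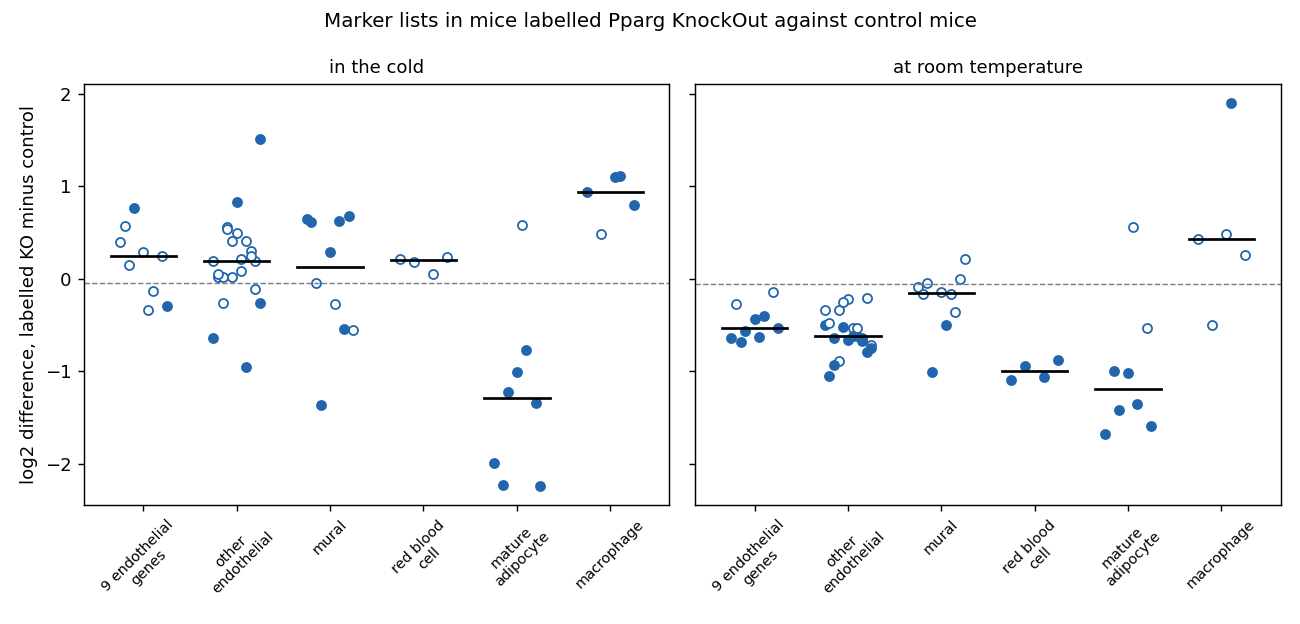
Log2 difference of mice labelled Pparg KnockOut minus controls (y axis) for each gene of 6 lists (x axis) in the cold and at room temperature; points are genes, filled where the adjusted p is under 0.05, black lines are list medians and the dashed line is the median of all genes tested. At room temperature the 9 endothelial genes, the 22 others and the 4 red blood cell genes all lie below 0, and in the cold these lists lie on both sides of 0 or above it.

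Among ligands and co-receptors of the VEGF family, Vegfd rose in mice labelled KnockOut by 1.19 ± 0.23 in the cold and by 1.45 ± 0.23 at room temperature. Vegfb fell by 0.77 in the cold. Of these 7 genes, 1 rose and 1 fell in the cold, where 38.3% of all genes were called, and 1 rose and 3 fell at room temperature, where 34.9% were. In the cold against room temperature, 4 of the 7 rose and 1 fell in mice labelled KnockOut, and 4 rose and 2 fell in controls. Over all genes 41.1% rose and 24.5% fell in the former, and 41.6% and 25.1% in the latter. Nrp1, a co-receptor of Kdr, went against the larger number, lower by 2.77 in mice labelled KnockOut and by 3.55 in controls. Vegfc rose in culture by 0.80 in Pparg KnockDown cells and by 0.93 in Gyk KnockDown cells. Of 13 angiopoietin, Notch, apelin and ephrin genes, 10 were tested in Pparg KnockDown cells, and 5 rose and 1 fell, against 17.8% and 17% of all genes. Among them was Angpt2, the ligand that antagonises Tek, up by 1.56 ± 0.07. Of the 22 other endothelial genes, 14 were tested there, and 6 rose and 2 fell, with a median of 0.35. Nos3, the endothelial nitric oxide synthase, was among those lower (-2.25 ± 0.13). In the Pparg control cells, 9 of the 13 and 13 of the 22 were above background on all 4 arrays. Either number of rises may therefore hold a gene that passed the filter through the KnockDown arrays.

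Of 15 genes of the hypoxia response or known to regulate Vegfa, 14 were tested in mice. In room temperature mice labelled KnockOut 7 fell and 1 rose, with Ppargc1a, a coactivator known to raise Vegfa, at -2.12 ± 0.72 and Esrra, its partner receptor, at -1.15 ± 0.12. In the cold 5 fell and 1 rose. Over all genes 19.7% fell and 15.1% rose at room temperature, and 22.3% fell and 16% rose in the cold. In cold against room temperature, 3 rose and 4 fell in mice labelled KnockOut, and 2 rose and 4 fell in controls, where 65.6% and 66.7% of all genes were called. Adm, a vessel-dilating peptide induced by hypoxia, was at least 3.41-fold higher in cold control mice. This bound is given as a description, since no room temperature control array read Adm above background.

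Over the 16 mouse arrays, the genes whose level followed Vegfa by A_52_P638895 most closely were Clpb, Brwd1 and Usp19 (Pearson r of 0.987, 0.987 and 0.985 among genes above background). Those closest to the mean of the 9 endothelial genes were Tspan2 (0.955), Tmem65 (0.944) and Gask1b (0.943), and those closest to Vegfa over the 16 culture arrays were Capn3 (0.911), Prkaa2 (0.883) and Asf1a (0.864). These arrays share groups, slides and scan days. With the group means removed, the 36 pairs of endothelial genes had a median r of 0.228 over the 16 mouse arrays (-0.456 to 0.737, 26 above 0), and Vegfa had r of -0.121 to 0.454 with the 9.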

How the data were processed

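RNA of 32 samples was hybridised to 1-colour Agilent arrays, 1 array per sample, per the labels. Per the file headers, the authors' Feature Extraction software (10.7.3.1) gave spot intensity values corrected for background and spatial trend, not normalized between arrays. The deposited table of the whole series holds the same intensity values (largest relative difference 0, column medians 7.55 to 49.0, linear scale, not centred). The flags for signal well above background and outlying spots are other values that the authors' software wrote, per the file headers. The deposited files pair probes with transcript accessions, of which 27234 of 39429 probes (69.1%) were named through RefSeq. Precision is limited by the number of arrays. 75th percentile intensity ran from 141 to 808.

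Intensities were converted to log2, each array was scaled by its own 75th percentile, control spots and outlying spots (101 to 247 per array) were left out, and spots of a probe were averaged. A gene was read by its probe of highest mean over all arrays, and a second probe is given separately. Genes needed a signal well above background on 4 arrays of the fit. Comparisons used limma 3.58.1 (lmFit and eBayes, R 4.3.3) with Benjamini-Hochberg adjustment over all genes and a threshold of 0.05. Each knockdown was fitted on its 8 arrays, the mouse contrasts on 16 arrays in 1 fit, the difference of knockdowns on 16 and mice against culture on 12. Where a group had no array above background, the fold is a bound set by the lowest signal among probes well above background. The fits were tested on simulated data. Alternatives were quantile, median and normexp processing, other filters, probe averaging, slide and replicate blocks, and leaving out arrays. Deviations from group means correlated above 0.1 for every same-numbered pair only in the Pparg knockdown experiment (0.703 to 0.767, against -0.117 to 0.477 elsewhere). The main fits did not pair arrays, there or elsewhere, and the replicate number entered only as a block in an alternative fit. Named genes were the 10 members with every probe, at most the 3 called genes of largest change per list and comparison, the 3 genes of most similar pattern, and Pparg, Gk and Ucp1. The members, lists and tests were chosen with earlier results of these data known. A lymphatic list was also read. Of 3 tested lymphatic markers, 0 were called in mice labelled KnockOut at either temperature.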

Additional observations from a re-analysis of the deposited data

Results flagged for a closer look

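Among 65 sets of 4 arrays in which all 4 read a member above background, 4 had an array far from the other 3 by Dixon's criterion, where chance gives about 1 in 20. These were Vegfa by A_52_P638895 in Gyk control cells, where array 1 was lowest at 3.76, Tek in cold mice labelled KnockOut, where array 3 was highest at -0.25, Flt1 in Pparg control cells, where array 3 was highest at -4.60, and Tie1 in cold mice labelled KnockOut, where array 4 was lowest at 0.52. Without Gyk control array 1 the Gyk knockdown difference of Vegfa was -0.87 (limma, adjusted p = 0.0494), a call not made with it.

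The effect of the KnockOut label differed between the cold and room temperature for Esam (1.34), Cdh5 (1.03), Tie1 (0.73) and Pecam1 (0.83, log2, cold minus room temperature, tested by the interaction in limma). Over all genes 13.3% were called in this test. Only Esam stayed called when arrays were scaled to their medians or corrected by normexp. Leaving out 1 array ended the call of Pecam1 in 7 of 16 fits and that of Tie1 in 2. Temperature cannot be told apart from slide and scan day, but each temperature's slides held both genotypes.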

How the results depend on the processing

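The Vegfa results depended most on the probe. With A_52_P249424, a choice added after seeing the data, the difference of mice labelled KnockOut was -0.76 at room temperature and -0.59 in the cold, that of cold against room temperature 0.42 in mice labelled KnockOut and 0.25 in controls, that of mice against culture 1.07, and that of the knockdown effects -0.15. Averaging both probes gave -0.44 in the cold for mice labelled KnockOut (called) and -0.18 for mice against culture (not called). Vegfa became called in Gyk KnockDown cells when every array had to be above background (-0.72, adjusted p = 0.0464), and for the difference of knockdowns under quantile normalization (0.79). Leaving out an array gave -0.87 to -0.60 for Vegfa in Gyk KnockDown cells and 0.54 to 0.81 for the difference of knockdowns, with calls without Gyk control 1 in both and without Gyk KnockDown 2 (0.76) in the second.

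Of the 9 endothelial genes, normexp and the filter on every array each left 1 higher in Pparg KnockDown cells in place of 2, and normexp turned Vwf to -0.16. At room temperature, 3 were lower in mice labelled KnockOut with array medians. In the cold, the number higher was 2 under quantile normalization, the filter on every array and the replicate block, and 3 with the slide as a block. The number lower in the cold was 0 under quantile normalization, array medians, no filter and the replicate block, and 2 with the slide block. For the difference of knockout effects, array medians and normexp each left 1 higher. The filter on every array left 1 of 9 higher for mice against culture, since 8 are dim in culture. Leaving out an array gave 1 to 2 higher in Pparg KnockDown cells, 1 without KnockDown 1, 3 or 4, since Vwf then misses the filter of 4 arrays, 1 to 3 higher and 0 to 1 lower in the cold (3 higher without control 2, 2 without KnockOut 2 or 4), 5 to 7 lower at room temperature, 2 to 5 higher for the difference of knockout effects (2 without KnockOut 1 at room temperature), and 5 to 9 higher for mice against culture, where the filter of 4 arrays cannot be met by 3 mouse arrays alone. The replicate block gave Vegfa differences of -0.06 in Pparg and -0.72 in Gyk KnockDown cells and 1.82 for cold control mice, and it changed no call of Vegfa. It removed the cold call of Flt1 (adjusted p = 0.0759), added Vwf there (0.0163), in cold control mice (0.0468) and for the difference of knockout effects (0.0373), removed the Pecam1 difference of knockout effects (0.0522), and gave 114 calls over all genes in Gyk KnockDown cells in place of 1056. Over all genes there, normexp gave 250 calls, no filter 450, leaving out 1 control 291 to 386 (386, 341, 291 and 351 without controls 1 to 4) and leaving out KnockDown 4 640. The slide block gave 7644 calls in Pparg KnockDown cells in place of 4465. Normexp gave 2388 in place of 4902 at room temperature, 600 in place of 1875 for the difference of knockout effects and 871 in place of 1675 for the difference of knockdowns, where the slide block gave 3033. Without KnockOut 1 at room temperature the difference of knockout effects had 1217. The cause of these shifts was not tested. Dim signal limits the culture results.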
